A study of Mus musculus with 16 samples.

Results

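The genes described here mark the blood vessels of the mouse brain: 25 genes of the endothelial cells that line the vessels and form the blood-brain barrier, and 11 genes of the mural cells (pericytes and smooth muscle) that wrap them. They were chosen by name from known vascular biology, 36 of the 39179 gene rows in the files. Every one of the 36 was present, and all passed the filter on low counts, with 70 counts for Anpep as the lowest count of any member in a library. The rule used names and no measured value, but the members were chosen with earlier results of these data known.

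RNA was sequenced from samples labelled as neurons of adult TERT-AD mice (strain label B6.129S6.SvEvTac) in 4 groups of 4 libraries. These were hippocampal neurons after tamoxifen, hippocampal control neurons, cortical neurons after tamoxifen and cortical control neurons, the controls having had vehicle. All groups, controls included, carry the TERT-AD label, and the study set out to compare neurons with activated Tert, the catalytic subunit of telomerase, with control neurons. About the alleles behind the label and what drives their activation, the age and sex of the mice, how many mice stand behind a library and how the neurons were obtained, the sources used here say nothing further. Libraries 1 and 2 of each group, and libraries 3 and 4, were closer to each other than to the other libraries of their group, and each pair was summed, which left 8 samples, 2 per group, called A and B. The p-values therefore rest on the spread between the 2 samples of a group, which nothing in the labels ties to separate animals. For each gene 1 spread was estimated over all 4 groups, so samples outside a comparison also shape its p-values.

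Endothelial cells of brain vessels are sealed to each other by tight junctions, take up glucose, hormones and lipids through dedicated transporters, and pump many foreign compounds back into the blood. Pericytes lie on the capillaries within the basement membrane and are held there by PDGF-B from the endothelium, which they sense through Pdgfrb. Smooth muscle rings the arterioles and arteries and sets their diameter with contractile proteins. None of these genes is used as a marker of neurons.

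Samples held 83527470 to 108293362 counts in genes. Levels are given as CPM, counts scaled to the TMM library size of the sample. Tert was low, at 0.931 and 2.04 CPM in hippocampal tamoxifen samples A and B, 1.29 and 3.59 CPM in hippocampal controls, 1.26 and 2.05 CPM in cortical tamoxifen samples, and 0.546 and 1.32 CPM in cortical controls, with overlapping groups in both regions. Neuronal transcripts such as Snap25 (133 to 906 CPM) and Slc17a7 (328 to 952 CPM) were present in every sample, and so were those of other cell types, since 10 oligodendrocyte markers summed to 21350 to 81950 CPM, 10 astrocyte markers to 7566 to 11120 CPM and 10 microglia markers to 974 to 2549 CPM. None of these lists had a marker at 0. Cortical tamoxifen sample B stood apart from the other cortical samples. It had the lowest mitochondrial share (20.4% of counts, against 29.9% in cortical tamoxifen sample A and 31.0% and 31.5% in cortical controls), the highest Snap25 level and the lowest summed oligodendrocyte markers of all 8 samples. Medians over the members in comparisons that hold cortical tamoxifen samples are therefore given with and without it. Overlap counts and most values of single genes in those comparisons include it. In bulk RNA of this kind, fewer cells of a type and less RNA per cell cannot be told apart.

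Vessel transcripts were detected in every sample. The 25 endothelial members summed to 1392 and 1375 CPM in hippocampal tamoxifen samples, 1279 and 1603 CPM in hippocampal controls, 1618 and 731 CPM in cortical tamoxifen samples, and 1558 and 1463 CPM in cortical controls. The 11 mural members summed to 502 and 490.3 CPM in hippocampal tamoxifen samples, 498 and 586 CPM in hippocampal controls, 403 and 242 CPM in cortical tamoxifen samples, and 434 and 431 CPM in cortical controls. Sample B of the cortical tamoxifen group was lowest in both sums. Per kilobase of exon, the endothelial level was led by Cldn5, the main tight junction claudin of brain endothelium, at a mean of 93.0 CPM per kb over the 8 samples, then by Ly6c1, a surface protein of endothelium, at 61.1 CPM per kb and by Slc2a1, the glucose transporter GLUT1, at 48.3 CPM per kb. Lowest in this class was Emcn, the sialomucin endomucin, at 2.30 CPM per kb. Among mural members Vtn, which encodes the matrix protein vitronectin made by brain pericytes, led at 40.2 CPM per kb, followed by Rgs5, a regulator of G protein signalling typical of pericytes, at 35.0 CPM per kb and by Acta2, smooth muscle actin, at 25.7 CPM per kb. Anpep, the pericyte aminopeptidase, was lowest at 0.871 CPM per kb. Some levels carry a limit from the counting, whose strand setting is not given in the sources used here: Eng overlaps Fpgs and Ak1, Egfl7 overlaps Agpat2, Tagln overlaps Pcsk7 and Ndufa4l2 overlaps Shmt2. Related genes had low counts beside their partners, with Ly6c2 at most 0.209 CPM and Abcb1b at most 5.96 CPM. Reads that aligned to more than 1 place were counted for no gene, so these levels cover uniquely aligned reads only.

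**Figure D1:**
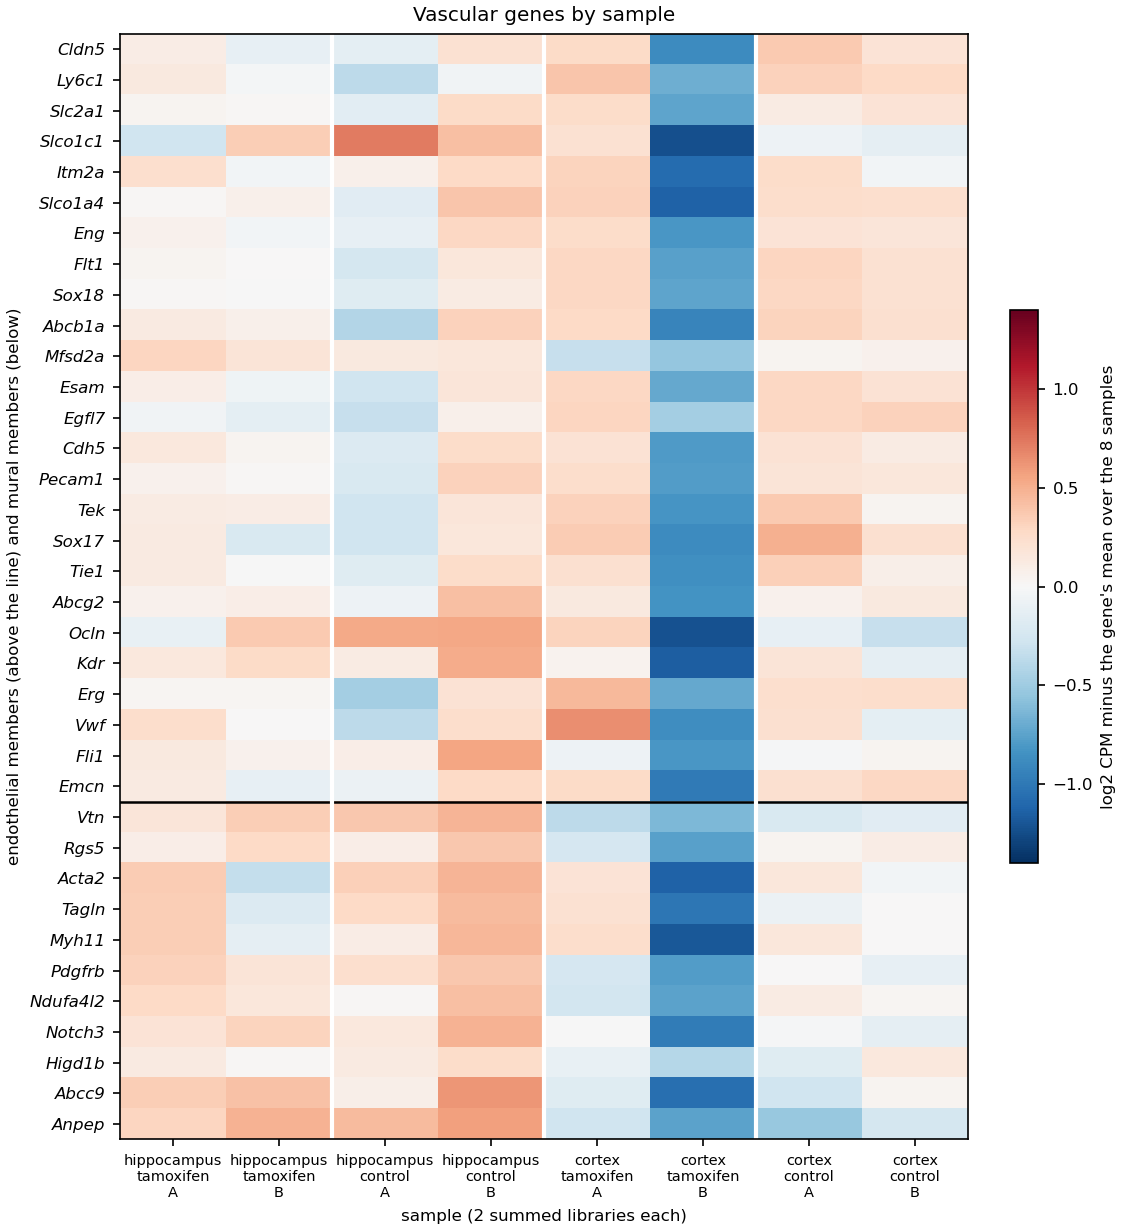
Each row is a vascular gene and each column a sample; colour gives log2 CPM minus that gene's mean over the 8 samples, endothelial genes above the black line and mural genes below. Cortical tamoxifen sample B is blue in all 36 rows, and the mural rows are mostly lower in cortical than in hippocampal samples.

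On build mm10 the gene of Vtn spans chr11:78499091-78502324 (plus strand), that of Mfsd2a chr4:122946850-122961188 (minus strand), that of Rgs5 chr1:169655501-169695813 (plus strand) and that of Cldn5 chr16:18776847-18778260 (plus strand). For Mfsd2a and Vtn, the members of smallest p in the tamoxifen comparisons, and for Flt1 and Rgs5, an endothelial and a mural gene with motif matches, the 150 bases before the transcription start are shown, from RefSeq on build GRCm38.p6, 5′ to 3′ on the gene's strand. Flt1, a VEGF receptor, lies at chr5:147726012-147726161 (minus strand) in this window, Mfsd2a, the lipid transporter that holds down vesicle traffic across the barrier, at chr4:122961189-122961338 (minus strand), Vtn at chr11:78498970-78499119 (plus strand) and Rgs5 at chr1:169655351-169655500 (plus strand). Capitals mark the ETS core GGAAG, bound by the ETS factors to which the members Fli1 and Erg belong, and the SOX core ACAAT, bound by SOX factors such as the members Sox17 and Sox18, each searched on both strands. These 2 cores cannot share bases with each other.
Flt1: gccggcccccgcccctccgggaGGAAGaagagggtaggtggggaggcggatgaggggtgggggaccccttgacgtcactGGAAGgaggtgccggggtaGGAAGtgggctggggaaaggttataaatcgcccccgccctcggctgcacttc
Mfsd2a: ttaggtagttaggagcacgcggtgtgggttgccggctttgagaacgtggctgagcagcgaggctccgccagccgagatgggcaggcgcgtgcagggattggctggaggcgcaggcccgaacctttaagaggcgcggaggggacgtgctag
Vtn: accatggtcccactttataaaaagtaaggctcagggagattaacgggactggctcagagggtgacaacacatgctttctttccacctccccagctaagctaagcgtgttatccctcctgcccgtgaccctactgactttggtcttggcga
Rgs5: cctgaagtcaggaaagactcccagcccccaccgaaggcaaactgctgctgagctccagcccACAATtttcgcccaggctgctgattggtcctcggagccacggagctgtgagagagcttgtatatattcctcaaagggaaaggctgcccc
Flt1 held 3 copies of the ETS core, Rgs5 held 1 SOX core, and neither motif was in the windows of Mfsd2a and Vtn. RefSeq promoters were matched for 24 of the 36 members, 32 promoters in all. Over the 250 bases before the start, the ETS core was in 21 of the 32 (65.6%), against 64.1% of 32851 promoters of all genes, and the SOX core in 6 of the 32 (18.8%), against 27.7%. The CArG box of serum response factor was searched on both strands in its strict form (CC, 6 of A or T, GG). It was in 0 of the 32 and in 1.47% of all promoters. Looser forms were not searched, and of the smooth muscle genes Acta2, Tagln and Myh11, only Acta2 had a promoter among the 32. The TATA box TATAAA, also searched on both strands, was in 4 of the 32 and in 12.4% of all promoters. It can share an end base with the SOX core and bases with the CArG box. These are matches of letters and do not show binding.

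Whether tamoxifen moved vessel genes in the cortical samples was the first comparison. Nearly all members were lower on average after tamoxifen, 24 of 25 endothelial and 11 of 11 mural, but 0 of the 36 passed edgeR's quasi-likelihood test after Benjamini-Hochberg adjustment (0% of the 18074 genes tested were called in either direction), and the decline sat in 1 of the 2 tamoxifen samples. The median log2 fold change was -0.37 over the endothelial members and -0.38 over the mural members, against 0.04 over all genes tested, of which 44.6% were negative and 55.4% positive. At an unadjusted p under 0.05, 3 members were lower and 0 higher, against 2.51% and 2.47% of all genes; DESeq2 and limma voom with quality weights also called 0 members.

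Tamoxifen sample B lay below both cortical controls for 25 of 25 endothelial and 11 of 11 mural members, against 39% of all genes, with median log2 ratios to the control mean of -0.99 and -0.83. Tamoxifen sample A lay below both controls for 2 endothelial and 4 mural members (35.7% of all genes) and above both for 13 and 4 (38.5% of all genes), with medians of 0.04 and -0.06. The groups did not overlap for 6 members, all lower after tamoxifen: Mfsd2a, Fli1, Rgs5, Vtn, Pdgfrb and Ndufa4l2. That is 2 of 25 endothelial and 4 of 11 mural members, against 15% of all genes that were lower without overlap. The 3 contractile genes and 23 of the 25 endothelial genes overlapped.

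Among junction and adhesion genes, Cldn5 had 153 and 69.3 CPM in cortical tamoxifen samples A and B, against 164 and 146 CPM in controls (log2 fold change -0.48 ± 0.34 SE, edgeR adjusted p = 0.830). Pecam1, the adhesion molecule PECAM-1 of endothelial contacts, had 60.0 and 29.5 CPM in tamoxifen samples, against 57.6 and 56.8 CPM in controls. In both genes sample A was at or near the control level and sample B well under it. Grouped with them were Cdh5, the VE-cadherin of adherens junctions, Esam, a junction immunoglobulin, Ocln, the tight junction protein occludin, and the sialomucin gene Emcn. Relative to the control mean, these 6 members ran from -1.25 (Emcn) to -0.95 log2 units in sample B. In sample A they ran from -0.02 to 0.52.

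Transport genes were read next. Slc2a1 had 161 and 80.7 CPM in cortical tamoxifen samples, against 146 and 154 CPM in controls. Slco1a4, a carrier of organic anions and steroid conjugates, had 120.2 and 44.0 CPM in tamoxifen samples, against 114 and 114 CPM in controls, the largest drop of any member in sample B at -1.37 log2 units. Abcb1a, the efflux pump P-glycoprotein, had 79.3 and 34.6 CPM in tamoxifen samples, against 81.3 and 76.7 CPM in controls. Sample A matched or passed the controls in the first 2 of these genes and lay between them in the third. Mfsd2a was the member of smallest p in this comparison, and it differed from the other transporters in that both tamoxifen samples were low: 19.4 and 16.6 CPM in tamoxifen samples, against 24.99 and 25.4 CPM in controls (log2 fold change -0.48 ± 0.12 SE, 95% interval -0.78 to -0.19, unadjusted p = 0.00577, edgeR adjusted p = 0.830). Its drop in sample B, -0.60, was the smallest of the 25 endothelial members there, and its ratio in sample A, -0.38, the lowest there. Abcg2, an efflux pump, and Slco1c1, the thyroxine carrier, had log2 fold changes of -0.37 ± 0.31 and -0.24 ± 0.43 (SE).

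Signalling receptors kept closely together. Flt1 had 218 and 105 CPM in cortical tamoxifen samples, against 221 and 207 CPM in controls, and the 5 receptors (with Kdr, the main VEGF receptor, Tek and Tie1 of the angiopoietin pathway and Eng, a TGF-beta co-receptor) spanned -1.19 to -0.99 log2 units in sample B and 0.01 to 0.11 in sample A. The 4 transcription factors spanned -1.25 to -0.82 in sample B. Fli1 had 9.48 and 5.66 CPM in tamoxifen samples, against 9.81 and 10.2 CPM in controls, so its lack of overlap rested on a gap of under 1 CPM for sample A. Vwf, the von Willebrand factor stored by endothelium, was the 1 endothelial member with a positive fold change (0.03 ± 0.46 SE), from 87.3 and 30.5 CPM in tamoxifen samples, against 64.8 and 50.5 CPM in controls: its samples were the highest and the lowest of the 4. Egfl7, a secreted endothelial factor, had 40.2 and 23.3 CPM in tamoxifen samples, against 39.7 and 40.6 CPM in controls, and Ly6c1 had 66.9 and 31.7 CPM, against 63.8 and 62.0 CPM in controls. Itm2a, a membrane protein of brain endothelium, had a log2 fold change of -0.34 ± 0.40 (SE).

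Among mural genes, 4 pericyte genes lay below both controls in both cortical tamoxifen samples. Rgs5 had 132 and 91.6 CPM in tamoxifen samples, against 159.8 and 167 CPM in controls (log2 fold change -0.55 ± 0.20 SE, 95% interval -1.01 to -0.08, edgeR adjusted p = 0.830). Pdgfrb had 28.9 and 19.9 CPM in tamoxifen samples, against 34.2 and 31.6 CPM in controls. Vtn had 61.0 and 50.8 CPM in tamoxifen samples, against 67.8 and 70.3 CPM in controls. In these 3 pericyte genes sample A was below the controls by less than sample B was. Ndufa4l2, a mitochondrial protein abundant in pericytes, had 3.74 and 2.66 CPM in tamoxifen samples, against 4.85 and 4.55 CPM in controls, with the same order. Contractile genes were split between the tamoxifen samples instead. Acta2 had 49.4 and 19.7 CPM in tamoxifen samples, against 48.5 and 42.2 CPM in controls. Tagln, the actin-binding protein transgelin, had 22.6 and 9.69 CPM in tamoxifen samples, against 18.4 and 19.6 CPM in controls, and Myh11, smooth muscle myosin, had 56.2 and 20.8 CPM, against 52.9 and 47.4 CPM in controls. Sample A was above both controls in all 3 and sample B below both. The remaining mural members, Notch3, the receptor that maintains smooth muscle and pericytes, Abcc9, the channel subunit SUR2 of pericytes, Higd1b and Anpep, had log2 fold changes of -0.44 to -0.12 with overlapping groups.

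**Figure D2:**
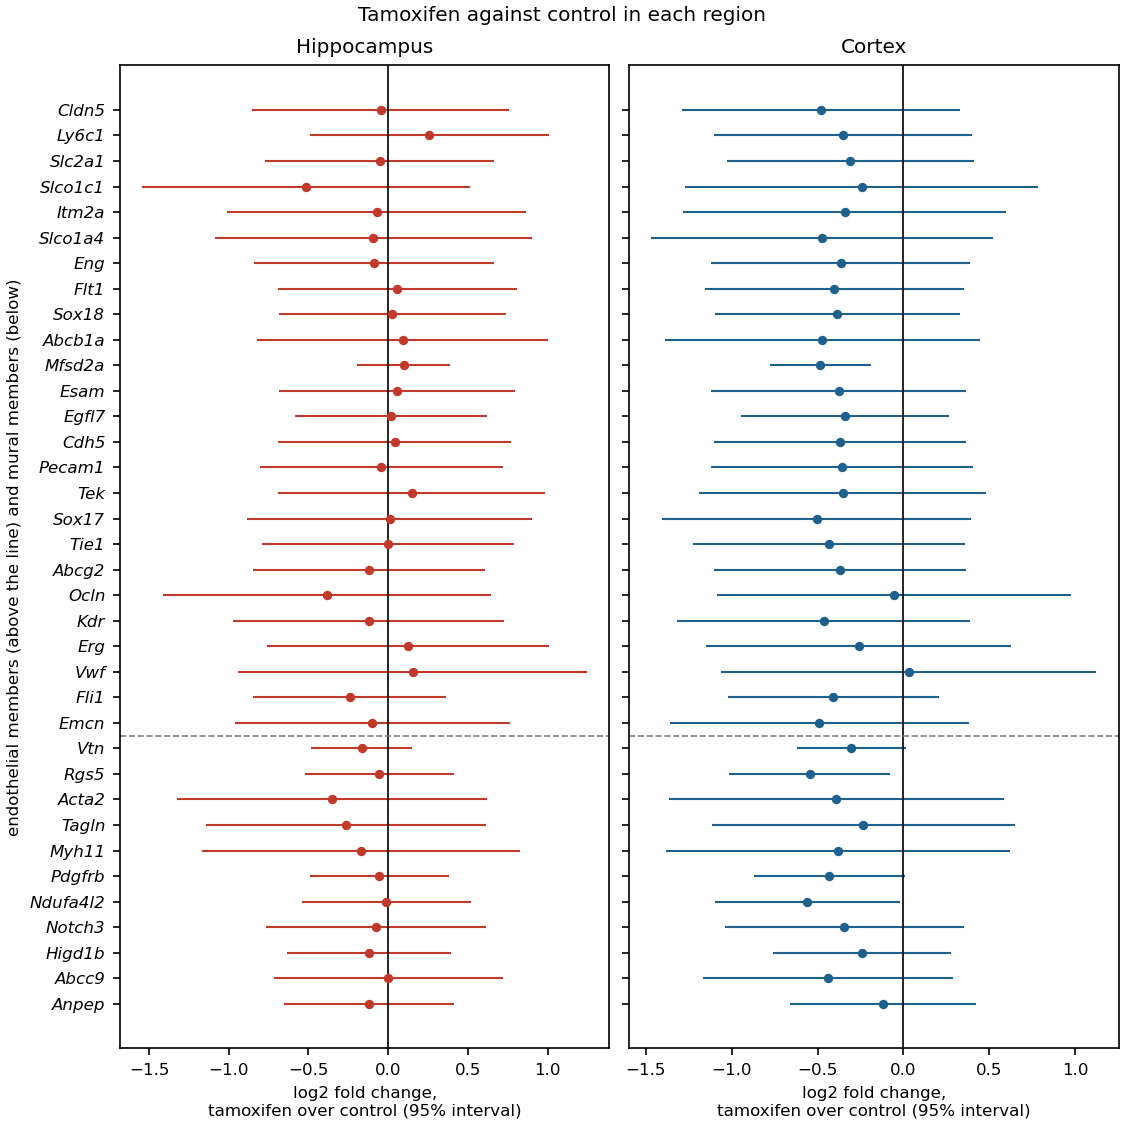
Points are log2 fold changes of tamoxifen over control in hippocampus (left) and cortex (right), bars their 95% intervals, endothelial genes above the dashed line and mural genes below. In the cortex 35 of 36 points lie left of 0 and 3 intervals exclude it (Mfsd2a, Rgs5 and Ndufa4l2); in the hippocampus the points lie on both sides and every interval includes 0.

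The cortical comparison depended on which tamoxifen sample was used. Without tamoxifen sample B the endothelial median was 0.04 and the mural median -0.06, with 0 members called. Without tamoxifen sample A, where the lone sample is assumed to vary like the other groups, the medians were -0.997 and -0.84 and 27 members were called lower, while 10.7% of all genes were called in that fit. With library sizes taken as the sum of gene rows, the medians were -0.24 and -0.27 while that of all genes moved to 0.25, and 8 members did not overlap as lower (6.29% of all genes). Markers of other cells varied in the same samples. Oligodendrocyte markers summed to 81950 and 21350 CPM in cortical tamoxifen samples, against 61920 and 63400 CPM in controls. Astrocyte markers summed to 8452 and 7566 CPM in tamoxifen samples, against 10310 and 11120 CPM in controls. Of these markers 10 of 10 were negative and 8 of 10 did not overlap (15% of all genes were lower without overlap), with a median of -0.43. Without tamoxifen sample B their median was -0.41, with 8 of 10 negative. Neuron markers (12 genes) summed to 8239 and 10490 CPM in tamoxifen samples, against 8821 and 9187 CPM in controls, and Snap25 had 396 and 906 CPM, against 417 and 443 CPM in controls. The part of glial or neuronal content in the vessel differences was not tested.

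In the hippocampus, the tamoxifen samples mostly lay within the range of the controls. There, 0 of 36 members passed edgeR's test (0% of 18074 genes called in either direction). The endothelial median log2 fold change was -0.0003 with 12 of 25 positive, and the mural median -0.12 with 1 of 11 positive, against -0.01 over all genes tested, of which 48.7% were positive and 51.3% negative. At an unadjusted p under 0.05 there were 0 members, against 2.14% of genes higher and 1.47% lower, and DESeq2 and limma voom called 0 as well. The groups did not overlap for 2 members that were higher, Ly6c1 and Mfsd2a (21% of all genes), and for 3 that were lower, Slco1c1, Ocln and Vtn (18.9% of all genes). The adjusted p was 1 for every member. The medians depended on which control was used: without control sample A the endothelial median was -0.20 and the mural median -0.21, and without control sample B they were 0.20 and 0.01. With library sizes taken as the sum of gene rows, 0 members were higher and 6 lower without overlap (14.6% and 23.6% of all genes).

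Barrier genes showed the overlap in detail. Cldn5 had 138 and 118 CPM in hippocampal tamoxifen samples, against 116 and 148 CPM in controls. Slc2a1 had 138 and 136 CPM in tamoxifen samples, against 121 and 163 CPM in controls, and Slco1a4 had 97.6 and 101.3 CPM, against 86.5 and 126 CPM in controls. In each of these genes both tamoxifen samples lay between the controls, as they did for Flt1 (184 and 179.9 CPM in tamoxifen samples, against 150.3 and 199 CPM in controls), Pecam1 (52.8 and 51.4 CPM, against 43.8 and 63.6 CPM in controls) and Abcb1a (71.6 and 68.7 CPM, against 49.4 and 82.4 CPM in controls). Vwf followed with 66.1 and 55.7 CPM in tamoxifen samples, against 43.2 and 66.2 CPM in controls, and Egfl7 with 31.5 and 29.6 CPM, against 26.0 and 34.2 CPM in controls. Control sample A was thus the lowest and control sample B the highest of the 4 samples in this run of endothelial genes. Mfsd2a had 29.9 and 27.4 CPM in tamoxifen samples, against 26.6 and 27.0 CPM in controls (log2 fold change 0.10 ± 0.12 SE). Ly6c1 had 56.2 and 49.9 CPM in tamoxifen samples, against 39.5 and 49.3 CPM in controls. Fli1 had 10.9 and 10.4 CPM in tamoxifen samples, against 10.6 and 14.6 CPM in controls. Ly6c1 and Mfsd2a separated from the controls by less than 1 CPM at the nearest samples, and Fli1 overlapped.

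Vtn was the member of smallest p in the hippocampal comparison, with 88.9 and 100.3 CPM in tamoxifen samples, against 103 and 109 CPM in controls (log2 fold change -0.16 ± 0.13 SE, unadjusted p = 0.260, edgeR adjusted p = 1). Rgs5 had 166 and 188 CPM in tamoxifen samples, against 165 and 202 CPM in controls, Pdgfrb had 42.7 and 38.6 CPM, against 40.2 and 44.2 CPM in controls, and Ndufa4l2 had 5.42 and 4.99 CPM, against 4.51 and 5.99 CPM in controls. These 3 pericyte genes overlapped. Acta2 had 55.3 and 34.5 CPM in hippocampal tamoxifen samples, against 54.6 and 60.1 CPM in controls (log2 fold change -0.35 ± 0.41 SE). Tagln had 24.7 and 17.1 CPM in tamoxifen samples, against 23.6 and 26.5 CPM in controls, and Myh11 had 60.0 and 43.3 CPM, against 50.9 and 65.3 CPM in controls. Hippocampal tamoxifen sample B was the lowest of the 4 in each of the 3 contractile genes, by -0.73 to -0.42 log2 units from the control mean, while its 8 other mural members ran from -0.18 to 0.03. In all, that sample lay below both controls for 6 of 11 mural and 5 of 25 endothelial members (30% of all genes) and above both for 0 and 2 (30% of all genes). Tamoxifen sample A lay below both for 2 and 2 (35.2% of all genes) and above both for 0 and 2 (36.4% of all genes). In the same comparison 9 of 10 astrocyte and 11 of 12 neuron markers were positive and 10 of 10 microglia markers negative, with 0 called. Astrocyte markers summed to 10830 and 9790 CPM in tamoxifen samples, against 8001 and 8713 CPM in controls, neuron markers to 7445 and 5594 CPM, against 6175 and 6207 CPM in controls, and microglia markers to 1911 and 1618 CPM, against 1662 and 2549 CPM in controls. Their part in the vessel values was not tested.

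Slco1c1 and Ocln are also expressed by the epithelium of the choroid plexus, the tissue that makes cerebrospinal fluid. Their highest levels were in the 4 samples with the most of that tissue's transcripts. Slco1c1 had 100.5 and 155 CPM in hippocampal tamoxifen samples, against 202 and 163 CPM in controls (log2 fold change -0.51 ± 0.43 SE, edgeR adjusted p = 1). Ocln had 15.7 and 21.7 CPM in tamoxifen samples, against 24.3 and 24.4 CPM in controls (-0.38 ± 0.43 SE, edgeR adjusted p = 1). Tamoxifen sample A was the lowest of the 4 for both genes. The 10 choroid plexus markers summed to 43.1 and 7893 CPM in the same tamoxifen samples, against 15450 and 7687 CPM in controls. In the cortex, Slco1c1 had 141 and 52.1 CPM in tamoxifen samples, against 116 and 112 CPM in controls, and Ocln had 20.8 and 7.22 CPM, against 15.6 and 13.5 CPM in controls. The choroid plexus markers there summed to 6260 and 5.53 CPM in tamoxifen samples, against 1109 and 7.62 CPM in controls. Tamoxifen sample A was the highest of the 4 cortical samples for both genes and for the markers. Cortical control sample B had a Slco1c1 level near that of control sample A with far fewer choroid transcripts. Its level was also above that of hippocampal tamoxifen sample A, which held more choroid transcripts. The part of choroid plexus RNA in these differences was not tested.

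**Figure D3:**
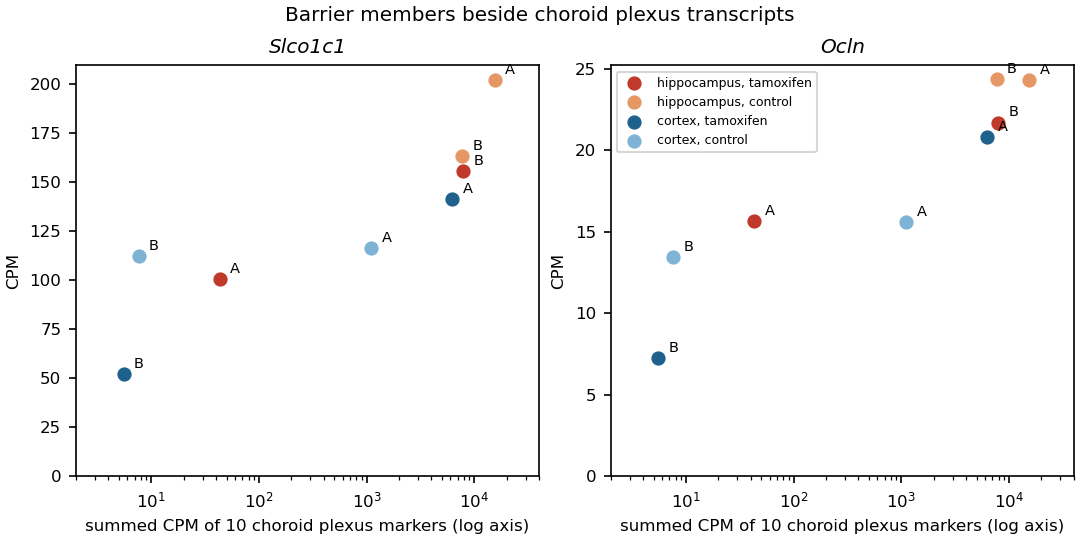
The x axis is the summed CPM of 10 choroid plexus markers on a log scale and the y axis the CPM of Slco1c1 (left) or Ocln (right); each point is a sample, labelled A or B and coloured by group. The 4 samples with the most choroid marker RNA (6260 CPM and above) hold the highest levels of both genes, at 141 CPM or more for Slco1c1 and 20.8 CPM or more for Ocln.

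The difference between the tamoxifen effects, hippocampus minus cortex, was tested as an interaction, and 0 of 36 members passed (0% of 18074 genes called). It was positive for 23 of 25 endothelial and 9 of 11 mural members (45.8% of all genes were positive and 54.2% negative), with medians of 0.39 and 0.21, against -0.04 over all genes. Mfsd2a had the smallest p and was the 1 member with an unadjusted p under 0.05 (2.66% of all genes in that direction, 2.77% in the other), at 0.58 ± 0.18 (SE, unadjusted p = 0.0126, edgeR adjusted p = 0.889). Rgs5 (0.49 ± 0.28), Ndufa4l2 (0.55 ± 0.32), Pdgfrb (0.38 ± 0.26) and Ly6c1 (0.61 ± 0.45) followed. DESeq2 and limma voom with quality weights called 0 members. Without cortical tamoxifen sample B the endothelial median was -0.08 and the mural median -0.02, while that of Mfsd2a was 0.47 (edgeR adjusted p = 0.503). The effects in hippocampus and cortex were thus not shown to differ for any member.

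Between hippocampal and cortical controls, mural genes stood to the hippocampal side. All 11 mural members were higher in hippocampus on average (50.1% of all genes were), with a median log2 fold change of 0.36, against 0.00 over all genes, and 7 of the 11 did not overlap (34.6% of all genes). Without hippocampal control B, Ndufa4l2 turned to -0.06, and Rgs5 and Myh11 fell to 0.02 each. No other mural member turned negative in any alternative fit. Vtn passed edgeR's test as higher (log2 fold change 0.62 ± 0.13 SE, 95% interval 0.30 to 0.94, adjusted p = 0.0454), from 103 and 109 CPM in hippocampal controls, against 67.8 and 70.3 CPM in cortical controls. It was 1 member of 36 called higher and 0 lower, against 2.71% and 3.48% of all genes. Anpep came next with 4.34 and 4.75 CPM in hippocampal controls, against 2.21 and 2.69 CPM in cortical controls (0.89 ± 0.23 SE, edgeR adjusted p = 0.0638). Pdgfrb had 40.2 and 44.2 CPM in hippocampal controls, against 34.2 and 31.6 CPM in cortical controls (0.36 ± 0.19 SE, edgeR adjusted p = 0.256). The regions did not overlap in any of these 3 genes, whereas Rgs5 (0.17 ± 0.20 SE), Myh11 (0.21 ± 0.42 SE) and Ndufa4l2 (0.16 ± 0.23 SE) overlapped. The edgeR call of Vtn was lost with upper quartile scaling (adjusted p = 0.0551, 6.28% of all genes called). It was also lost with the replicate block (edgeR adjusted p = 0.0934, 0.398% of all genes called). Leaving out any single hippocampal sample or cortical control, which leaves 1 sample in a group, lost the call too. Each of those fits with a sample left out also called a smaller share of all genes. The log2 fold change of Vtn stayed between 0.57 and 0.67 in all of these fits.

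Endothelial members did not share that direction. Of the 25, 7 were higher in control hippocampus and 18 lower, with a median of -0.11, 4 not overlapping as higher (34.6% of all genes) and 7 as lower (33.4%), and 0 called. That median rested on single samples, at 0.10 without hippocampal control A and -0.38 without hippocampal control B. Egfl7 had 26.0 and 34.2 CPM in hippocampal controls, against 39.7 and 40.6 CPM in cortical controls (-0.41 ± 0.26 SE, edgeR adjusted p = 0.335), and Ly6c1 had a log2 fold change of -0.50 ± 0.32 (SE). Sox17 and Erg, both factors of endothelial identity, were at -0.41 ± 0.38 and -0.34 ± 0.37 (SE). In the other direction stood Ocln at 0.75 ± 0.44 and Slco1c1 at 0.68 ± 0.44 (SE), genes that choroid plexus epithelium also expresses. Choroid plexus markers summed to 15450 and 7687 CPM in hippocampal controls, against 1109 and 7.62 CPM in cortical controls, and their part was not tested. With library sizes taken as the sum of gene rows alone, the endothelial median turned to 0.27 while the median of all genes moved to 0.39, so relative to all genes it was -0.11 under either scaling. The mural median was 0.36 above all genes under either scaling. On the sum of gene rows, 24 of the 36 members were higher and 0 lower without overlap, against 62.1% and 13% of all genes. Other cells also differed between the regions: 10 of 10 microglia markers were higher in control hippocampus, 6 of them called (summed level 1662 and 2549 CPM in hippocampal controls, against 1013 and 1190 CPM in cortical controls). Neuron markers were lower for 12 of 12, 3 of them called (6175 and 6207 CPM in hippocampal controls, against 8821 and 9187 CPM in cortical controls). Fibroblast markers had a median of 1.04, with 8 of 9 tested higher and 2 called (summed level 116 and 102 CPM in hippocampal controls, against 61.4 and 60.9 CPM in cortical controls). Their part in the vessel values was not tested.

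After tamoxifen the regional difference in mural genes was again in 1 direction, with 11 of 11 higher in hippocampus (47.5% of all genes were higher and 52.5% lower), a median of 0.67 against -0.03 over all genes, and 8 not overlapping (22.4% of all genes). In this comparison 0 members were called (0.426% of all genes higher, 0.692% lower), 7 had an unadjusted p under 0.05 as higher and 0 as lower (9.57% and 12%), and DESeq2 called 6, beside 11.6% of all genes in that fit, and limma voom with quality weights 0. Vtn (0.76 ± 0.14 SE, edgeR adjusted p = 0.0535), Mfsd2a (0.67 ± 0.12 SE, 0.0561), Pdgfrb (0.74 ± 0.19 SE, 0.0914) and Anpep (0.89 ± 0.23 SE, 0.0934) were closest to the threshold. Anpep had 3.92 and 4.45 CPM in hippocampal tamoxifen samples, against 2.62 and 1.89 CPM in cortical tamoxifen samples. Abcc9 had 14.1 and 14.7 CPM in hippocampal tamoxifen samples, against 9.85 and 5.33 CPM in cortical tamoxifen samples, and Notch3 had 38.6 and 42.1 CPM, against 33.8 and 17.2 CPM. In all 3 genes the regions did not overlap. The endothelial median was 0.24, and -0.23 without cortical tamoxifen sample B, while the mural median was 0.42 without it, with 8 of 11 positive and 0 called. On the sum of gene rows, 25 of 36 members were higher without overlap and 0 lower (29.4% and 8.63% of all genes). Markers of other cells differed too: fibroblast markers had a median of 1.07 (8 of 9 higher, 1 called; 136 and 117 CPM in hippocampal samples, against 53.0 and 69.3 CPM in cortical samples), microglia markers 0.83 (10 of 10 higher; 1911 and 1618 CPM, against 1044 and 974 CPM), astrocyte markers 0.76 (10 of 10 higher, 2 called; 10830 and 9790 CPM, against 8452 and 7566 CPM) and neuron markers -0.99 (12 of 12 lower; 7445 and 5594 CPM, against 8239 and 10490 CPM). Their part in the vessel values was not tested.

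A ratio inside each sample removes any scaling between libraries. The mean log2 CPM per kb of the 11 mural members minus that of the 25 endothelial members was -0.45 and -0.53 in hippocampal tamoxifen samples, -0.32 and -0.45 in hippocampal controls, -0.98 and -0.63 in cortical tamoxifen samples, and -0.92 and -0.78 in cortical controls. All 4 hippocampal samples were above all 4 cortical samples. For the 8 mural members other than the contractile genes the values were -0.83 and -0.75 in hippocampal tamoxifen samples, -0.68 and -0.80 in hippocampal controls, -1.44 and -0.89 in cortical tamoxifen samples, and -1.32 and -1.14 in cortical controls, again without overlap of the regions. The 3 contractile genes gave 0.56 and 0.04 in hippocampal tamoxifen samples, 0.65 and 0.49 in hippocampal controls, 0.26 and 0.05 in cortical tamoxifen samples, and 0.16 and 0.17 in cortical controls, and the regions overlapped. Cortical tamoxifen sample B had the lowest absolute level of both cell classes, yet its mural level relative to its endothelial level was the highest of the 4 cortical samples. These ratios are a description and were given no test, since the members were chosen with these data known.

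**Figure D4:**
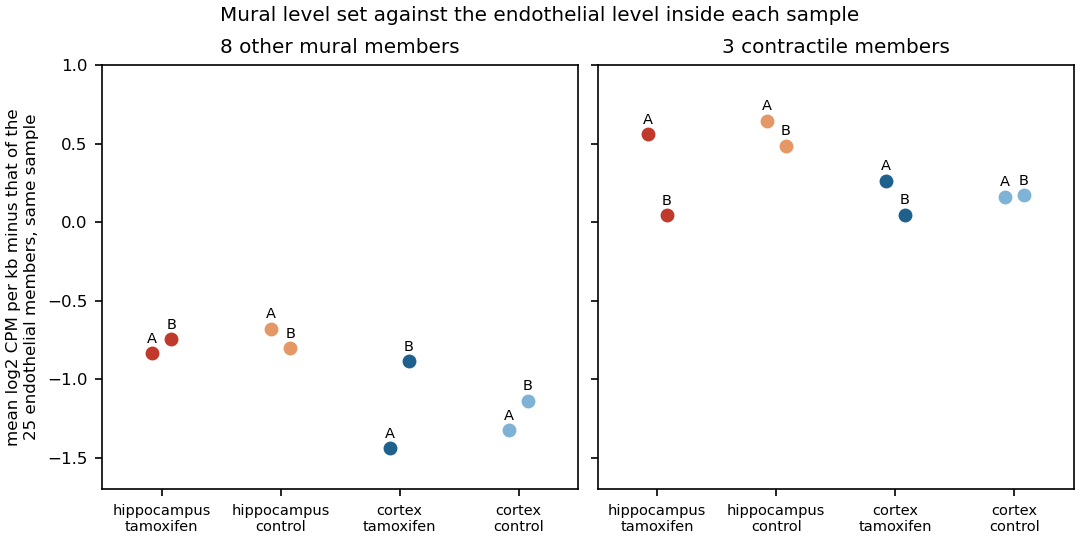
Each point is a sample (A or B): the y axis is the mean log2 CPM per kb of 8 non-contractile mural genes (left) or 3 contractile genes (right) minus that of the 25 endothelial genes in the same sample. On the left the hippocampal samples (-0.83 to -0.68) lie above the cortical ones (-1.44 to -0.89); on the right the regions overlap.

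Other vascular genes, outside the 36, were read from lists of the same pathways. Among 20 ligands and receptors of vessel signalling, 16 were negative in cortex after tamoxifen with a median of -0.22, and 10 of 20 in hippocampus with a median of -0.01, and 0 were called in either region. Among 14 tested barrier Wnt and norrin genes, 11 were negative in cortex and 8 in hippocampus, and 0 were called. Tspan12, the norrin co-receptor of endothelium, had -0.49 ± 0.13 (SE) and Ndp, which encodes norrin, -0.41 ± 0.14 (SE) in cortex, both with an edgeR adjusted p of 0.830, and without cortical tamoxifen sample B they had -0.35 ± 0.12 and -0.41 ± 0.16 (SE). Of 18 other pericyte and smooth muscle genes, 17 were negative in cortex and 12 in hippocampus, and 0 were called. Of 12 other junction genes, 7 were negative in cortex and 7 in hippocampus, of 14 other transport and transcytosis genes 13 and 7, and of 11 arterial, venous and adhesion genes 10 and 9, with 0 called in any of these. The cortical counts rested on tamoxifen sample B. Without it, 10 of 20 signalling genes were negative (median -0.01), 7 of 14 Wnt and norrin genes (0.04), 9 of 18 pericyte and smooth muscle genes (0.02), 1 of 12 junction genes (0.17), 5 of 14 transport genes (0.04) and 2 of 12 arterial, venous and adhesion genes (0.21), with 0 called. Plvap, which forms the diaphragms of fenestrated vessels such as those of the choroid plexus, had -0.63 ± 0.20 (SE) in hippocampus (unadjusted p = 0.0156, edgeR adjusted p = 1), beside the choroid marker sums given above, whose part was not tested. Between control regions, Angpt1, the pericyte and glial ligand of Tek, was called higher in hippocampus (1.42 ± 0.22 SE, edgeR adjusted p = 0.0272), as were Cspg4, the pericyte proteoglycan NG2 that oligodendrocyte precursors also carry (0.83 ± 0.15 SE, adjusted p = 0.0330 in edgeR), Tgfbr1 (0.98 ± 0.19 SE, adjusted p = 0.0386 in edgeR) and Slc3a2 (0.64 ± 0.12 SE, adjusted p = 0.0373 in edgeR). Apln, the ligand apelin, was called lower (-0.85 ± 0.19 SE, edgeR adjusted p = 0.0454). These 5 genes were named because they passed the threshold. They were 2 called higher and 1 lower of 20 signalling genes, 1 higher of 14 transport genes and 1 higher of 18 pericyte and smooth muscle genes. The other lists had 0 called, and over all genes tested 2.71% were called higher and 3.48% lower. How the 5 calls hold under the alternative fits is not given here. With the replicate block, 0.398% of all genes were called between control regions. Markers of other cells also differed between the control regions, as given above, and the cells behind the 5 calls were not tested. Blood and stromal transcripts were checked beside them: 6 erythrocyte markers summed to 183 to 263 CPM over the 8 samples, and 10 fibroblast markers to 102 to 136 CPM in hippocampal samples and 53.0 to 69.3 CPM in cortical samples.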

How the data were processed

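Total RNA of 16 libraries, extracted with Trizol and made into standard Illumina libraries per the labels' protocols, was sequenced. The submitters' processing notes name STAR, HTSeq and the mm10 build. Tool versions, the annotation and the strand setting were not given in the sources used here. Raw counts per gene, as deposited by the authors, filled 39179 gene rows, and 5 rows per file that name no gene were left out of library sizes and tests. Each file held 33236178 to 57195203 counts in genes.

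Libraries 1 and 2, and 3 and 4, of each group differed by more than counting noise alone but by less than other pairs. Their dispersion index was 2.54 to 2.8 at 20 to 200 counts and 3.12 to 5.56 for the most abundant genes over 8 pairs, against 3.61 to 11.4 and 13.4 to 245 for the 16 other pairs within groups. Each such pair was summed and counted as 1 sample. This pairing was read from the counts, not from the labels, and no label pairs the summed letters A and B across groups.

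Genes were tested with edgeR 4.0.16 (filterByExpr, TMM, robust quasi-likelihood fit of all 8 samples, 18074 genes, Benjamini-Hochberg threshold 0.05) in 5 comparisons, with limma 3.58.1 and DESeq2 1.42.0 in R 4.3.3 as alternatives. The procedure was tested on simulated data. It missed a first criterion on the share of strongly changed genes recovered, and the criterion was then replaced by criteria on bias, null rate and recovery at higher counts, with the procedure unchanged. Levels are CPM on TMM library sizes, a scale chosen after the plain sum of gene rows had been seen, because the mitochondrial share ran from 20.4% to 31.5%. Ratios to the control mean and levels per kb use CPM with no pseudocount. Exon lengths for CPM per kb are the bases of exon per gene as deposited in the authors' files. Values in every sample were printed for 14 named vessel genes, for members past the threshold and for the 5 of smallest p in each comparison other than that between regions after tamoxifen. Abcc9, Notch3 and the further genes named as past the threshold were chosen after their values were seen. The grouping of members by role and the counts of single samples against both controls were added after the fits had been seen. The members and lists were chosen with earlier results of these data known.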

Additional observations from a re-analysis of the deposited data

How the results depend on the processing

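Each comparison was refitted under 19 alternatives. The block with crossed letters, the TMM scale of printed levels with its sum-scaled counterpart, and the further lists without a cortical tamoxifen sample were chosen after seeing the data. Percentages in brackets are the share of all genes called in the same fit. Over single members and settings, 3311 values kept their side of the threshold, 204 of them uncalled and with the other sign, 101 passed the threshold where the reported fit did not, 8 lost it and 0 changed the sign of a call. For cortex after tamoxifen, 4 members were called with 16 libraries kept separate (Mfsd2a, Ndufa4l2, Rgs5 and Vtn; 3.36%), a fit that treats summed pairs as independent, and 0 to 27 when single samples were left out, 27 being without Cortical TAM sample A (10.7%). The endothelial median there ran from -0.997 to 0.043 and the mural median from -0.837 to -0.063 when samples were left out, the upper ends being without Cortical TAM sample B. For hippocampus after tamoxifen, leaving out samples gave endothelial medians of -0.1999 to 0.1997 and mural medians of -0.211 to 0.0139. For the difference of effects, 16 separate libraries called 1 member (Mfsd2a; 5.18%), and leaving out samples gave endothelial medians of -0.084 to 1.065 and mural medians of -0.0199 to 0.781. Between control regions, the count of members called was 3 with library sizes as the sum of gene rows (11.4%), 0 with upper quartile factors (6.28%), 2 with DESeq2 (17.5%), 3 with limma voom and quality weights (26.6%), 3 with 16 separate libraries (41.7%), 0 with the replicate block (0.398%) and 0 to 4 when samples were left out, 4 being without either Cortical TAM sample (20.7%). The endothelial median there ran from -0.383 to 0.102 when samples were left out, and the mural median was 0.7415 with the sum of gene rows. Between regions after tamoxifen, the count was 2 with no gene filter (1.99%), 6 with DESeq2 (11.6%), 9 with 16 separate libraries (32.9%), 8 in limma voom with correlated pairs (16.9%) and 0 to 31 when samples were left out, 31 being without Cortical TAM sample A (21.7%). Its endothelial median ran from -0.23 to 0.89 and its mural median from 0.42 to 1.112. The cause of these shifts was not tested. The letters A and B follow library numbers, and no label ties them across groups. The correlation of B minus A between groups ran from -0.697 to 0.568, and whether samples are paired across groups was not tested. The replicate block called 0 members in each of the 5 comparisons. With crossed letters it called 1 between control regions (11.3%) and 0 in the others. The 2 samples per group limit what these tests can call.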
